A study of Mus musculus with 12 samples.

Results

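The genes described here are 39 interferon-induced genes of the mouse. They were labelled as 6 interferon-gamma-type GTPases, 4 genes shared by type I interferons and interferon-gamma, and 29 genes of the type I side. These labels are assignments made for the list, and a gene may respond to more interferons than its label names. Which interferon acts on each gene was not tested, so contrasts between the labels do not separate the pathways. The genes were listed by symbol. Each is represented by the probe set that names that symbol alone and has the highest mean over the 12 arrays. On this rule 37 of the 39 were measured, of 18193 genes with a probe set of their own. Ifi44 had no such probe set, and the only probe set naming Isg15 also names Gm9706, so neither has a value. On the type I side 27 of 29 genes were measured, and the GTPases and the shared genes were measured in full. Of the 37, 36 lay above the median probe-set mean of 5.22 on the log2 scale, and Oasl2 lay below it at 4.62.

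The arrays hold RNA of B220+ B cells from the spleen of C57BL/6 mice that carry the Tg(IghelMD4)4Ccg transgene, which gives B cells a receptor for the antigen HEL (hen egg lysozyme). Cells were selected on magnetic beads and cultured with HEL, anti-CD40 and IL21, agents that imitate antigen and the help of follicular T cells. All 6 groups shared strain, transgene and culture, and each had 2 arrays: a control, a group labelled Jmjd2a-depleted and a group labelled Jmjd2c-depleted, each at day 1 and at day 3. Jmjd2a and Jmjd2c, now Kdm4a and Kdm4c, are histone demethylases, and by its title the study asked which genes depend on them during plasma cell differentiation. The labels describe small interfering RNA in one place and a virus with short hairpin RNA in another. The titles call the 2 arrays of a group biological replicates. An age and the number of animals behind an array are not given in the sources used here, nor is it said whether replicates came from separate animals or separate cultures. The p-values therefore measure the spread between these arrays, and how much of it is between animals is not known.

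Interferons are secreted proteins that switch cells into an antiviral state. Type I interferons (alpha and beta) bind the Ifnar1 and Ifnar2 receptor and act through a complex with Stat2 and Irf9 that binds the interferon-stimulated response element (ISRE). Interferon-gamma, made chiefly by natural killer (NK) cells and T cells, binds Ifngr1 and Ifngr2 and acts on genes with the gamma-activated site (GAS), and through Irf1, whose product also binds ISRE-like sequences. Guanylate-binding proteins (Gbp) and immunity-related GTPases (Igtp, Irgm1, Irgm2, Iigp1) act in the defence against intracellular pathogens and are classical targets of interferon-gamma. In B cells interferon-gamma is known as a signal for class switching and for the T-bet programme.

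Before the results, the state of the arrays bears on all of them. Kdm4a differed from control by 0.11 (log2, SE 0.09) at day 1 and by -0.12 (SE 0.09) at day 3 on the arrays labelled Jmjd2a-depleted, and Kdm4c by 0.19 (SE 0.12) and 0.03 (SE 0.12) on those labelled Jmjd2c-depleted. None of the 4 differences passed the test, so the arrays are called by their labels throughout. Across all probe sets the group means of the day 3 labelled arrays correlated at 0.998 (Jmjd2a) and 0.997 (Jmjd2c) with the day 1 controls, against 0.988 and 0.991 with the day 3 controls. Day 3 control replicate 2 stood apart, with an interquartile range of 3.08 where the other arrays had 3.38 to 3.63. The spread between replicates, pooled over probe sets, was an SD of 0.259 in the day 3 controls and of 0.115 to 0.157 elsewhere. Of 10 markers of mature B cells 9 were measured, and their mean level differed between groups. It was 8.86 and 8.79 on the day 1 controls, 10.30 to 10.67 on the labelled arrays of day 1 and 8.89 to 9.15 on the arrays of day 3. Markers of macrophages and NK cells differed between groups as well and are given below.

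Promoter stretches of 6 members are shown because they hold the letters of these 2 elements and belong to genes on which the comparisons below turn. Sequences are from RefSeq (GRCm38.p6), 5′ to 3′ on the strand of the gene. Capitals mark a match, on either strand, to GAAANNGAAA for ISRE or TTCNNNGAA for GAS. Bst2 holds a GAS match that overlaps the first of 2 overlapping ISRE matches, and its capitals run together.
Gbp2: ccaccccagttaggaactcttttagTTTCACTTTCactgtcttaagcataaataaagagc
Igtp: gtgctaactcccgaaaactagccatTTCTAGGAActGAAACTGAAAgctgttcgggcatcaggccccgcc
Irgm2: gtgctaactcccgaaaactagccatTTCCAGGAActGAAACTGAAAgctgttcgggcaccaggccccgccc
Irf1: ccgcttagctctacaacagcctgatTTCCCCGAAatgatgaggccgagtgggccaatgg
Ifit3: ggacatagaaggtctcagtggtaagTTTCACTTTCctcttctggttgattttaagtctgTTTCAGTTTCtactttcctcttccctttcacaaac
Bst2: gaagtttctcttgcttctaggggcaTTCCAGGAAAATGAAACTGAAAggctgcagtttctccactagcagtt

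The Gbp2 stretch lies at chr3:142620579-142620638 on the plus strand, from base -84 to base -25 before the annotated start. Igtp (chr11:58199486-58199555, plus strand) and Irgm2 (chr11:58214877-58214947, plus strand) are neighbours, and 68 of the first 70 bases of their stretches are identical (97.1%). Irf1 lies at chr11:53769899-53769957 and Ifit3 at chr19:34583348-34583441, both on the plus strand. Bst2 lies at chr8:71537562-71537633 on the minus strand. In windows from 250 bases before to 50 bases after the start, 19 of the 30 members with a window held ISRE and 8 held GAS, where 3.99% of all genes with a window held ISRE and 9.55% held GAS. ISRE was in all 5 GTPase windows and in 12 of 21 on the type I side, and GAS was in 2 and 5 of them. Genes that rose between days in control cells held ISRE in 9 of 13 windows, genes that fell in 5 of 7 and genes that did not pass in 4 of 8. GAS was in 4, 3 and 1 of these windows. A match describes the letters and is not evidence of a factor bound there.

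Control cells were compared between day 1 and day 3 first, since the labelled arrays are read against them. In these cells 16 of 37 members rose (8.46% of all probe sets rose) and 10 fell (15.4% of all probe sets fell). The GTPases rose in 6 of 6 cases, with a median log2 difference of 1.40 against 0.036 over all probe sets. The shared genes rose in 3 of 4 and fell in 1. The type I side had no common direction: 7 of 27 rose, 9 fell and 11 did not pass, with a median of -0.01. The balance of rises and falls depends on normalization. With quantile normalization 20 members rose and 8 fell in controls, and Irf7 (-0.21) and Bst2 (-0.20) no longer passed.

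**Figure D1:**
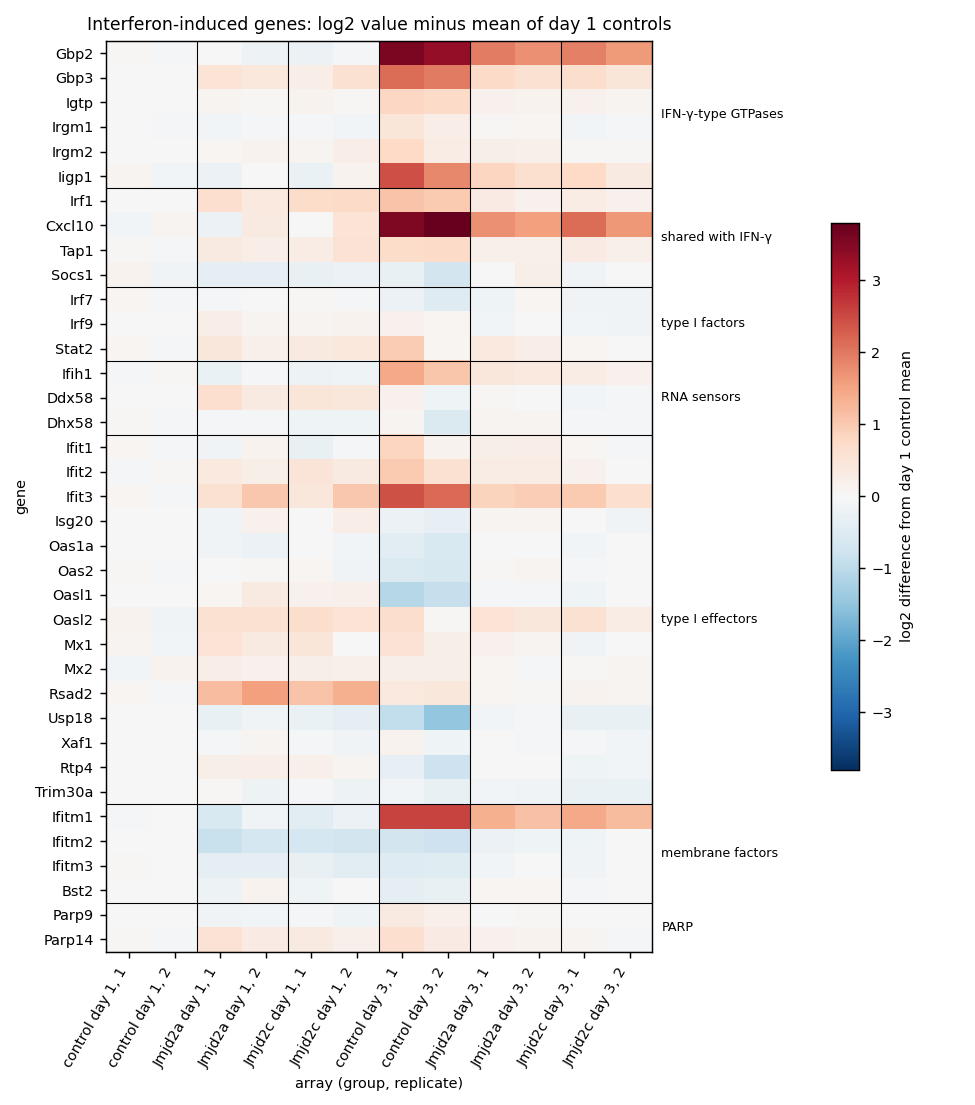
Log2 value of each of the 37 measured genes (rows, grouped by role) on each of the 12 arrays (columns, by group and replicate), minus the mean of the 2 day 1 control arrays. The day 3 controls are red for Gbp2, Cxcl10, Ifitm1 and Ifit3 and blue for Usp18 and Oasl1, and the labelled arrays of day 3 are paler in both.

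Gbp2, a guanylate-binding protein, read 9.10 and 9.01 on the day 1 controls and 12.65 and 12.41 on the day 3 controls. The labelled arrays of day 1 lay at 9.06 and 8.87 (Jmjd2a) and 8.85 and 8.98 (Jmjd2c), and those of day 3 at 11.00 and 10.80 (Jmjd2a) and 10.96 and 10.69 (Jmjd2c). Day 3 controls were thus the highest group and day 3 labelled arrays were in between, with no overlap between these groups. The rise in controls was 11.1-fold (log2 difference 3.47, SE 0.11, adjusted p = 2.5e-08). A second probe set of Gbp2 gave the same calls in the comparisons of label with control and between days in controls. The probe set used is of a type that can also bind related transcripts.

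Gbp3, its neighbour on chromosome 3, read 8.76 and 8.80 on the day 1 controls and 10.91 and 10.75 on the day 3 controls. Its labelled arrays read 9.31 and 9.19 (Jmjd2a) and 9.03 and 9.36 (Jmjd2c) at day 1, then 9.52 and 9.36 (Jmjd2a) and 9.44 and 9.23 (Jmjd2c) at day 3. The day 1 labelled arrays were already above their controls, and hardly moved afterwards. Gbp3 rose in controls by 2.05 (SE 0.12, adjusted p = 3.3e-07).

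Iigp1, an immunity-related GTPase that is loaded onto parasite vacuoles, read 6.55 and 6.33 on the day 1 controls against 8.89 and 8.28 on the day 3 controls. At day 1 its labelled arrays read 6.21 and 6.45 (Jmjd2a) and 6.19 and 6.56 (Jmjd2c), which overlap the controls. At day 3 they read 7.27 and 7.04 (Jmjd2a) and 7.21 and 6.77 (Jmjd2c), below both controls. The rise in controls was 2.14 (SE 0.21, adjusted p = 1.9e-05).

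The other GTPases rose less in controls. Igtp rose by 0.76 (SE 0.06, adjusted p = 4.2e-06), Irgm2 by 0.52 (SE 0.13, adjusted p = 0.013) and Irgm1 by 0.37 (SE 0.07, adjusted p = 0.0024). The call of Irgm2 was lost without either day 1 control array, at 0.52 each time, and its value was 0.29 without day 3 control replicate 1. Igtp and Irgm2 are close relatives, and how far their probes cross-react was not tested.

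**Figure D2:**
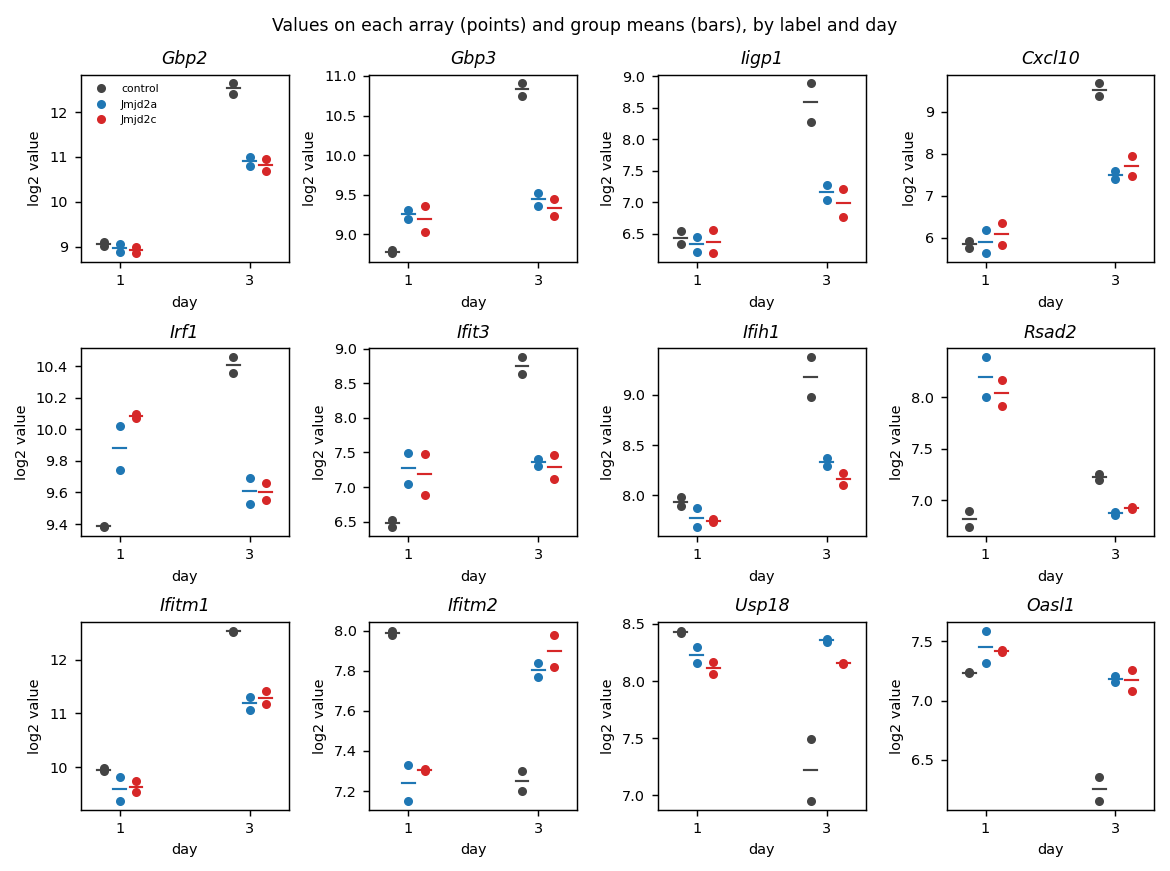
Log2 value on each array (points) and group mean (bars) of 12 members, by day (horizontal axis) and label (colour); vertical axes differ between panels. Gbp2, Iigp1, Cxcl10, Ifih1 and Ifitm1 are highest on the day 3 controls, Rsad2 is highest on the labelled arrays of day 1, and Usp18 and Oasl1 are lowest on the day 3 controls.

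Among the shared genes, Cxcl10 moved most. This chemokine, which attracts activated T cells and NK cells, read 5.75 and 5.93 on the day 1 controls and 9.38 and 9.69 on the day 3 controls. The labelled arrays read 5.63 and 6.19 (Jmjd2a) and 5.83 and 6.35 (Jmjd2c) at day 1, and 7.59 and 7.41 (Jmjd2a) and 7.96 and 7.48 (Jmjd2c) at day 3. Labelled and control arrays thus overlapped at day 1 and were apart at day 3. Cxcl10 rose in controls by 3.70 (SE 0.22, adjusted p = 4.6e-07), the largest rise among the 37.

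Irf1, the transcription factor of the interferon-gamma response, read 9.39 and 9.38 on the day 1 controls and 10.46 and 10.36 on the day 3 controls. On the labelled arrays it read 10.02 and 9.74 (Jmjd2a) and 10.07 and 10.10 (Jmjd2c) at day 1, and 9.69 and 9.53 (Jmjd2a) and 9.66 and 9.55 (Jmjd2c) at day 3. So the labelled arrays were above the controls at day 1 and below them at day 3, without overlap. The rise in controls was 1.03 (SE 0.09, adjusted p = 1e-05).

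Tap1, which carries peptides to class I molecules, rose in controls by 0.72 (SE 0.08, adjusted p = 5.7e-05). Its 3 dimmer probe sets gave 0.10, 0.11 and -0.09, none past the test. Socs1, an inhibitor of interferon receptor signalling that interferon itself induces, fell by 0.49 (SE 0.15, adjusted p = 0.032). That call was lost without day 1 control replicate 1 (-0.36) and without day 3 control replicate 2 (-0.28).

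On the type I side the transcription factors moved little. Irf7, which amplifies type I interferon production, fell by 0.36 in controls (SE 0.12, adjusted p = 0.044), a call that was lost without either day 1 control array (-0.29 and -0.42) or without day 3 control replicate 2 (-0.22). Stat2 differed by 0.50 (SE 0.22) and Irf9 by 0.11 (SE 0.08), neither past the test. Both Stat2 and Irf9 belong to the complex through which type I interferons act.

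Of the 3 sensors of viral RNA only Ifih1 (MDA5) changed in controls. It read 7.89 and 7.98 at day 1 and 9.38 and 8.98 at day 3, and rose by 1.25 (SE 0.13, adjusted p = 2.1e-05). Ddx58 (RIG-I) differed by -0.01 (SE 0.12) and Dhx58 by -0.24 (SE 0.16). Of its other probe sets, 1 fell by 0.86 (adjusted p = 0.01) and 1 gave 0.12, so the probe sets of Ddx58 differ in call.

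The antiviral effectors split. In controls 3 of 15 rose, 5 fell and 7 did not pass. Ifit3, of a family that binds viral RNA, read 6.53 and 6.42 on the day 1 controls and 8.88 and 8.63 on the day 3 controls, a rise of 2.28 (SE 0.20, adjusted p = 6.8e-06). Its labelled arrays read 7.05 and 7.49 (Jmjd2a) and 6.89 and 7.48 (Jmjd2c) at day 1, and 7.31 and 7.40 (Jmjd2a) and 7.46 and 7.12 (Jmjd2c) at day 3. All 8 labelled arrays therefore lay between the 2 control groups. Ifit2 rose by 0.78 (SE 0.13, adjusted p = 0.00093), while Ifit1, from the same cluster on chromosome 19, differed by 0.47 (SE 0.19, adjusted p = 0.093).

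Usp18, which removes Isg15 from proteins and dampens type I receptor signalling, fell most. It read 8.44 and 8.42 on the day 1 controls and 7.49 and 6.95 on the day 3 controls, a fall of 1.21 (SE 0.14, adjusted p = 6.9e-05). On the labelled arrays it read 8.16 and 8.30 (Jmjd2a) and 8.17 and 8.06 (Jmjd2c) at day 1, and 8.34 and 8.37 (Jmjd2a) and 8.16 and 8.15 (Jmjd2c) at day 3. Only the day 3 controls were below 8.

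Oasl1, of the oligoadenylate synthetase family and a restraint on Irf7 translation, read 7.24 and 7.23 on the day 1 controls and 6.15 and 6.35 on the day 3 controls. The fall was 0.98 (SE 0.12, adjusted p = 8.7e-05). Its labelled arrays read 7.32 and 7.59 (Jmjd2a) and 7.41 and 7.43 (Jmjd2c) at day 1, and 7.16 and 7.21 (Jmjd2a) and 7.08 and 7.26 (Jmjd2c) at day 3. As with Usp18, the day 3 controls stood alone. The synthetases Oas2 (-0.58, SE 0.11, adjusted p = 0.0017) and Oas1a (-0.50, SE 0.08, adjusted p = 0.00061), which make the activator of RNase L, also fell.

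Rtp4 fell by 0.54 (SE 0.13, adjusted p = 0.0079), a call that was lost without either day 1 control array (-0.55 and -0.53), and the value was -0.29 without day 3 control replicate 2. Its dimmer second probe set gave -0.05. Rsad2 (viperin), which blocks viral replication, differed by 0.41 (SE 0.13, adjusted p = 0.0467). That call was lost without either day 1 control array (0.49 and 0.32) or without day 3 control replicate 2 (0.38), and its other probe sets gave -0.01 and 0.06, neither past the test. The antiviral GTPases Mx1 (0.38, SE 0.16) and Mx2 (0.22, SE 0.11) did not pass, nor did Oasl2 (0.34, SE 0.19), Isg20 (-0.27, SE 0.11), Xaf1 (-0.02, SE 0.09) or Trim30a (-0.19, SE 0.08).

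The Ifitm genes, neighbours on chromosome 7 whose products block the entry of viruses at membranes, moved in opposite directions. Ifitm1 read 9.93 and 9.98 on the day 1 controls and 12.52 and 12.54 on the day 3 controls, a rise of 2.57 (SE 0.13, adjusted p = 1.8e-07). The labelled arrays gave 9.37 and 9.82 (Jmjd2a) and 9.53 and 9.75 (Jmjd2c) at day 1, and 11.31 and 11.07 (Jmjd2a) and 11.41 and 11.17 (Jmjd2c) at day 3. At day 3 every labelled array was above all day 1 arrays and below both controls.

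Ifitm2 read 8.0 and 7.98 on the day 1 controls and 7.30 and 7.20 on the day 3 controls, a fall of 0.74 (SE 0.10, adjusted p = 0.0002). The labelled arrays gave 7.15 and 7.33 (Jmjd2a) and 7.31 and 7.30 (Jmjd2c) at day 1, then 7.77 and 7.84 (Jmjd2a) and 7.82 and 7.98 (Jmjd2c) at day 3. The order of control and labelled arrays was therefore opposite on the 2 days. Ifitm3 fell in controls by 0.47 (SE 0.09, adjusted p = 0.0017) and Bst2 (tetherin), which holds budding virus to the cell, by 0.33 (SE 0.10, adjusted p = 0.028). The call of Bst2 was lost without either day 1 control array (-0.32 and -0.33) and without day 3 control replicate 1 (-0.28).

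Of the ADP-ribosyltransferases, Parp14 rose by 0.47 (SE 0.11, adjusted p = 0.0096) and Parp9 by 0.26 (SE 0.06, adjusted p = 0.01) in controls. Without day 1 control replicate 2 both calls were lost (Parp14 0.43, Parp9 0.25), as was that of Parp9 without day 1 control replicate 1 (0.28). The dimmer probe set of Parp14 gave -0.17. Of the 16 rises in controls 12 remained calls in every fit that left out 1 array, and of the 10 falls 6 did.

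**Figure D3:**
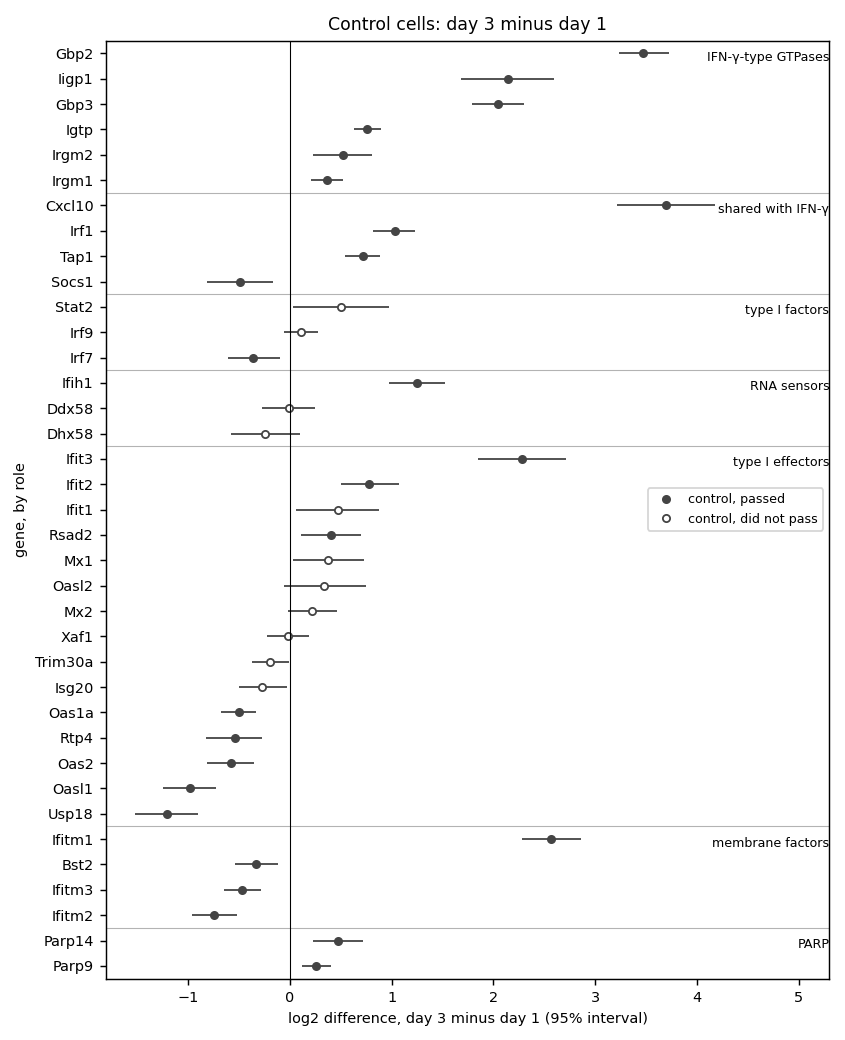
Log2 difference between day 3 and day 1 controls for each member (points; 95% interval as lines), grouped by role; filled points passed the test and open points did not. All 6 GTPases lie to the right of 0, while the type I effectors run from Ifit3 at 2.28 down to Usp18 at -1.21.

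The labelled arrays of day 1 were compared with the controls of day 1. Of 37 members, 7 were higher (4.23% of all probe sets were higher) and 2 lower (3.25% lower) on arrays labelled Jmjd2a-depleted. On arrays labelled Jmjd2c-depleted 6 were higher (5.32% of all probe sets) and 2 lower (5.69%). Of the GTPases 1 of 6, Gbp3, passed in each label, and the medians of the 6 were 0.0011 and 0.01. Both labels share the same 2 control arrays, so their values are given side by side only.

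Rsad2 was the largest of these differences. It read 6.90 and 6.74 on the controls, 8.0 and 8.39 on the arrays labelled Jmjd2a and 7.91 and 8.17 on those labelled Jmjd2c, without overlap. It was higher by 1.37 (SE 0.13, adjusted p = 8.4e-05) and 1.22 (SE 0.13, adjusted p = 0.00014). By day 3 it had fallen again, by 1.32 (Jmjd2a label, adjusted p = 0.00014) and 1.11 (Jmjd2c label, adjusted p = 0.00032), to between 6.86 and 6.94 on the 4 labelled arrays. Both other probe sets of Rsad2 were higher at day 1 too, by 1.44 and 1.04 (Jmjd2a) and by 1.32 and 1.16 (Jmjd2c).

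Ifit3 was higher by 0.80 (Jmjd2a, adjusted p = 0.03) and 0.71 (Jmjd2c, adjusted p = 0.037), Irf1 by 0.50 (adjusted p = 0.0072) and 0.70 (adjusted p = 0.00058), and Ddx58 by 0.49 (adjusted p = 0.029) and 0.45 (adjusted p = 0.03). Gbp3 was higher by 0.47 (adjusted p = 0.028) and 0.41 (adjusted p = 0.039), and Tap1 by 0.30 (adjusted p = 0.0499) and 0.40 (adjusted p = 0.008). Parp14 passed for the Jmjd2a label (0.43, adjusted p = 0.041) and gave 0.27 for the Jmjd2c label. Ifitm2 was lower by 0.76 (log2 difference -0.76, adjusted p = 0.00077) and 0.69 (log2 difference -0.69, adjusted p = 0.0011). Ifitm3 differed by -0.35 (adjusted p = 0.029) and -0.34 (adjusted p = 0.023).

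Few of these day 1 calls stood without each array in turn: Rsad2 and Ifitm2 for both labels, and Irf1 for the Jmjd2c label. For the Jmjd2a label, leaving out either control array ended the calls of Gbp3 (0.45 and 0.49), Ifit3 (0.85 and 0.74), Irf1 (0.50 and 0.49), Ddx58 (0.50 and 0.47), Ifitm3 (-0.32 and -0.37), Parp14 (0.48 and 0.38) and Tap1 (0.33 and 0.26). For the Jmjd2c label it ended those of Gbp3 (0.40 and 0.43), Ifit3 (0.77 and 0.66), Ddx58 (0.47 and 0.44) and Ifitm3 (-0.32 and -0.37), and control replicate 2 that of Tap1 (0.37). Leaving out Jmjd2a replicate 1 gave 0.35 for Irf1, 0.32 for Ddx58 and 0.30 for Parp14, and leaving out replicate 2 gave 0.57 for Ifit3, none past the test. Without either Jmjd2a array the calls of Gbp3 (0.41 and 0.53), Ifitm3 (-0.36 and -0.33) and Tap1 (0.26 and 0.33) ended as well. Without Jmjd2c replicate 2 the values of Ifit3 (0.42), Gbp3 (0.24), Tap1 (0.27), Ifitm3 (-0.27) and Ddx58 (0.47) did not pass, nor did Ddx58 (0.43) without replicate 1. The count for the Jmjd2a label was 2 without either control array and 3 without Jmjd2a replicate 1, and for the Jmjd2c label it was 4 and 3 without control replicate 1 and 2 and 3 without Jmjd2c replicate 2.

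At day 3 the labelled arrays were again compared with the controls of their day. On arrays labelled Jmjd2a-depleted 10 of 37 members were higher (13.7% of all probe sets were higher) and 13 lower (7.11% lower). Quantile normalization moved the split for the Jmjd2a label to 7 higher and 17 lower. On arrays labelled Jmjd2c-depleted 7 were higher (9.28%) and 15 lower (5.04%). The GTPases were lower in 5 of 6 cases (Jmjd2a, median -1.0 against -0.043 over all probe sets) and in 6 of 6 (Jmjd2c, median -1.06 against -0.011). The type I side went both ways, with 9 of 27 higher and 5 lower (Jmjd2a, median 0.03) and 7 higher and 6 lower (Jmjd2c, median -0.07).

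Cxcl10 was lower by 2.04 (Jmjd2a; log2 difference -2.04, SE 0.22, adjusted p = 6.7e-05) and by 1.82 (Jmjd2c; -1.82, SE 0.22, adjusted p = 0.00017). Gbp2 differed by -1.63 (SE 0.11, adjusted p = 3.5e-06) and -1.71 (SE 0.11, adjusted p = 3.2e-06), Iigp1 by -1.43 (SE 0.21, adjusted p = 0.00054) and -1.60 (SE 0.21, adjusted p = 0.0003), and Gbp3 by -1.38 (SE 0.12, adjusted p = 1e-05) and -1.49 (SE 0.12, adjusted p = 7.8e-06). On the linear scale these GTPases were 2.61-fold to 3.26-fold lower. Ifit3 (-1.40 and -1.46), Ifitm1 (-1.34 and -1.24), Ifih1 (-0.85 and -1.02), Irf1 (-0.80 and -0.80), Igtp (-0.61 and -0.62), Tap1 (-0.52 and -0.48) and Irgm1 (-0.31 and -0.43) were lower in both labels. So were Ifit2 (-0.52 and -0.70) and Parp9 (-0.24 and -0.27).

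The genes higher than control at day 3 in both labels were all of the type I side. Usp18 was higher by 1.14 (SE 0.14, adjusted p = 0.00017) and 0.94 (SE 0.14, adjusted p = 0.00078), and Oasl1 by 0.93 (SE 0.12, adjusted p = 0.0002) and 0.91 (SE 0.12, adjusted p = 0.00027). Oas2 (0.64 and 0.55), Ifitm2 (0.55 and 0.65), Rtp4 (0.54 and 0.42), Oas1a (0.50 and 0.45) and Ifitm3 (0.42 and 0.38) followed. Socs1 (0.61), Bst2 (0.38) and Isg20 (0.36) passed for the Jmjd2a label only, with 0.43, 0.30 and 0.20 for the Jmjd2c label, and Irgm2 (-0.48) and Parp14 (-0.44) for the Jmjd2c label only, with -0.32 and -0.32 for the Jmjd2a label. The difference between the labels passed for none of these 5.

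Calls at day 3 that held without each array in turn were 15 of 23 (5 higher, 10 lower) for the Jmjd2a label and 15 of 22 (4 higher, 11 lower) for the Jmjd2c label. In the Jmjd2a label, calls that ended without labelled replicate 1 or 2 were those of Irgm1 (-0.29 and -0.32), Ifit2 (-0.51 and -0.52), Bst2 (0.38 both times), Rtp4 (0.56 and 0.52), Parp9 (-0.23 and -0.25) and Isg20 (0.36 both times), and without replicate 2 also Ifitm3 (0.36) and Socs1 (0.51). In the Jmjd2c label they were those of Irgm2 (-0.49 and -0.48), Rtp4 (0.45 and 0.39), Parp9 (-0.25 and -0.28) and Parp14 (-0.50 and -0.38), and without replicate 2 also Ifit2 (-0.62), Oas2 (0.53) and Ifitm3 (0.32). Without day 3 control replicate 1, Irgm2 gave -0.25 and Parp14 -0.28 (Jmjd2c) and Parp9 -0.16 (Jmjd2a), none past the test, while Ifit2 gave -0.32 (Jmjd2a) and Rtp4 0.67 (Jmjd2c), both past it. Without day 3 control replicate 2, Rtp4 gave 0.17 (Jmjd2c), Socs1 0.40 and Isg20 0.31 (Jmjd2a), none past the test, while Rtp4 gave 0.29 in the Jmjd2a label and passed. The count for the Jmjd2a label was 15 without its replicate 2.

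Other probe sets of some members gave another call against the controls. At day 1 a dim probe set of Ddx58 gave 0.12 and 0.23 (Jmjd2a and Jmjd2c) and that of Parp14 gave 0.01 (Jmjd2a), none past the test. The 3 dimmer probe sets of Tap1 lay between -0.10 and 0.10 at day 1 and between -0.24 and 0.22 at day 3, none past the test. At day 3 the other probe set of Rtp4 gave 0.11 and 0.09 and that of Parp14 gave 0.07 (Jmjd2c), none past the test. In the Jmjd2a label at day 3, 1 other probe set of Ddx58 was higher by 0.87 (adjusted p = 0.011) and 1 of Dhx58 by 0.57 (adjusted p = 0.05), where those reported gave 0.03 and 0.34.

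**Figure D4:**
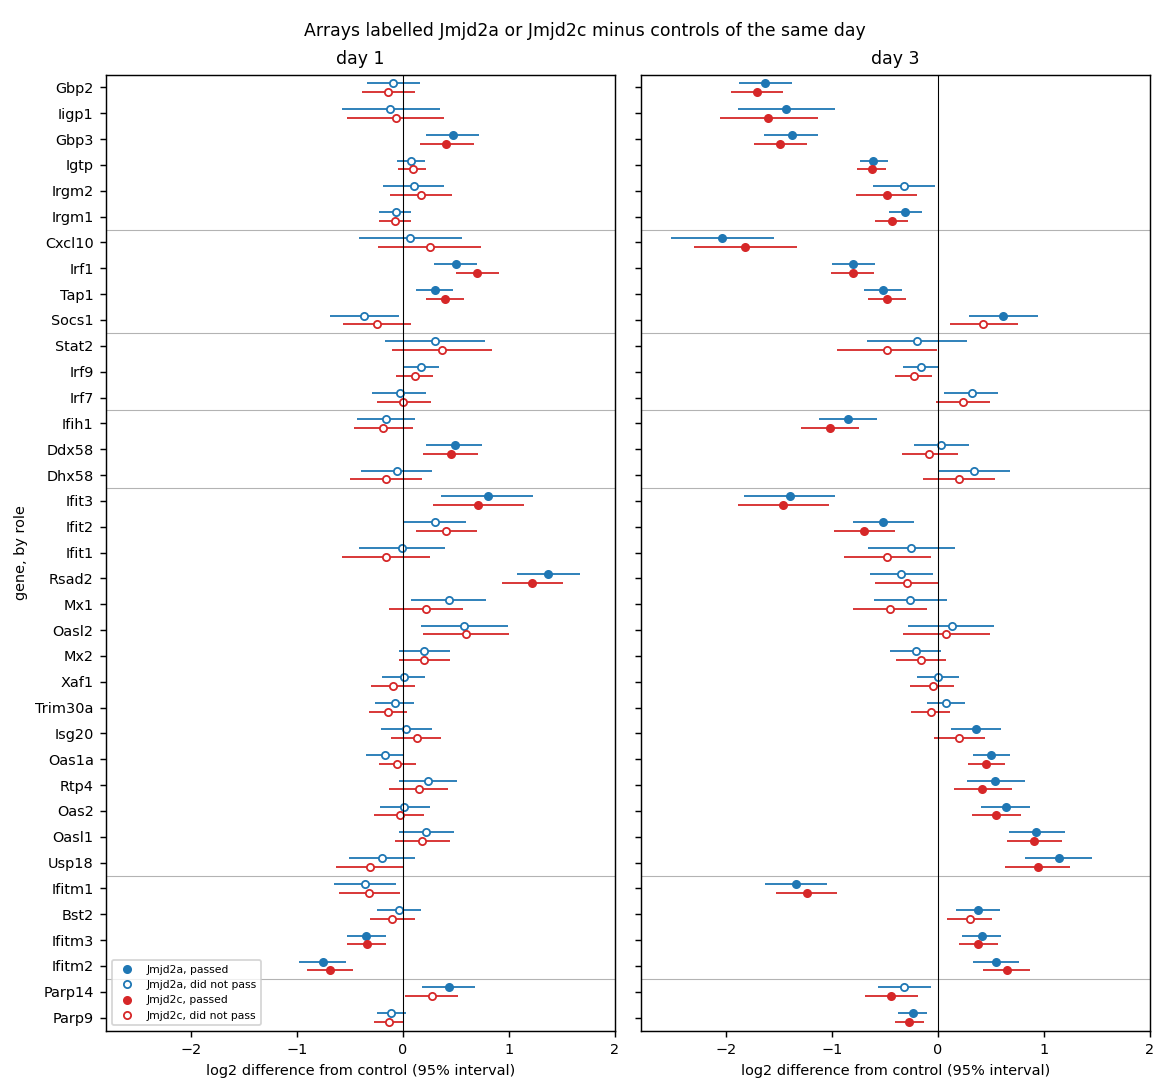
Log2 difference between labelled and control arrays of the same day for each member (points; 95% interval as lines), Jmjd2a in blue and Jmjd2c in red; filled points passed the test. At day 1 Rsad2 lies furthest to the right, at 1.37 and 1.22, and at day 3 the GTPases lie to the left of 0 and Usp18 and Oasl1 to the right.

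From day 1 to day 3 within each label, fewer members changed than in controls. On arrays labelled Jmjd2a-depleted 6 rose (2.26% of all probe sets rose) and 2 fell (3.35% fell), and on those labelled Jmjd2c-depleted 4 rose (3.27%) and 3 fell (5.36%). Gbp2 rose by 1.93 (Jmjd2a, adjusted p = 2e-06) and 1.91 (Jmjd2c, adjusted p = 1.3e-06), Ifitm1 by 1.59 (adjusted p = 3e-05) and 1.65 (adjusted p = 1.4e-05), and Cxcl10 by 1.59 (adjusted p = 0.0013) and 1.63 (adjusted p = 0.00075). These 3 rises and the fall of Rsad2 held in both labels without each array in turn. Ifitm2 rose by 0.57 and 0.59, and Ddx58 fell by 0.47 and 0.54. Iigp1 (0.83) and Ifih1 (0.56) rose in the Jmjd2a label, with 0.62 and 0.42 in the Jmjd2c label, where Irf1 fell by 0.48. None of the calls on these 5 genes held without each array in turn, and Ddx58 gave -0.30 in the Jmjd2a label without day 1 replicate 1. Other probe sets that did not pass gave 0.61 for Iigp1 (Jmjd2a), -0.93 for Rsad2 (Jmjd2c) and -0.35 and -0.29 for Ddx58. Centring the arrays on their medians gave 6 rises and 1 fall for the Jmjd2a label, and quantile normalization 7 and 3 for the Jmjd2c label. The count for the Jmjd2a label was 4 without day 1 replicate 1 or either day 3 array of that label, and for the Jmjd2c label it was 4 without its day 3 replicate 2 and 14 without day 3 control replicate 2. Gbp3, which rose 2.05 in controls, differed by 0.19 (SE 0.12) and 0.14 (SE 0.12), and Ifit3 by 0.08 (SE 0.20) and 0.10 (SE 0.20).

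Whether the change between days differed from that of the controls was tested by the interaction of label and day. It passed for 7 members upward (12% of all probe sets) and 13 downward (6.36%) in the Jmjd2a label, and for 7 upward (10.7%) and 15 downward (6.84%) in the Jmjd2c label. For Gbp2 the change was smaller by 1.54 (interaction -1.54, SE 0.16, adjusted p = 4.9e-05) and 1.57 (interaction -1.57, SE 0.16, adjusted p = 3.9e-05).

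Each day, the Jmjd2a label was also set against the Jmjd2c label. None of the 37 members passed on either day by limma, and 0% of all probe sets did. At an unadjusted p under 0.05, 1081 probe sets and 1 member differed at day 1, and 2571 probe sets and 0 members at day 3. The member was Irf1. The largest differences were 0.21 for Mx1 at day 1 (95% interval -0.14 to 0.56) and 0.28 for Stat2 at day 3 (95% interval -0.19 to 0.75). The intervals of all members lay within -0.71 and 0.75, so differences of that size remain possible.

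Other genes of the pathway were followed from lists. Of 6 interferon genes measured (Ifng, Ifnb1, Ifna1, Ifna2, Ifna4 and Ifna5), only Ifng passed a test in these comparisons. It read 4.90 and 5.15 on the day 1 controls, 5.79 and 5.55 (Jmjd2a) and 5.72 and 5.81 (Jmjd2c) on the labelled arrays of day 1, 7.23 and 6.60 on the day 3 controls, and 5.69 and 5.70 (Jmjd2a) and 5.82 and 5.34 (Jmjd2c) on the labelled arrays of day 3. The day 3 controls were the highest and the day 1 controls the lowest. Ifng rose in controls by 1.89 (adjusted p = 3.9e-05) and at day 3 differed by -1.21 (Jmjd2a, adjusted p = 0.0014) and -1.33 (Jmjd2c, adjusted p = 0.00087) from control. Ifnb1 stayed between 4.06 and 4.62 on all arrays, below the median probe-set mean.

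Of 6 receptor genes 4 were higher at day 1 in both labels, where 4.23% (Jmjd2a) and 5.32% (Jmjd2c) of all probe sets were higher. Ifngr1 and Ifngr2, the 2 chains of the interferon-gamma receptor, were higher by 0.81 and 0.84 (Jmjd2a) and by 1.01 and 1.16 (Jmjd2c), and Il10rb by 0.51 and 0.58. The fourth, named after its values were seen, was Ifnar2 (0.44 and 0.51), a chain of the type I receptor. Of 4 kinases and STATs measured, Tyk2 rose in controls (0.74) while Jak1 (-0.63) and Stat3 (-0.83) fell.

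Of 4 further GTPases measured, 3 rose in controls between days and were lower at day 3 in each label. Of all probe sets 8.46% rose in controls, and 7.11% (Jmjd2a) and 5.04% (Jmjd2c) were lower at day 3. In controls Gbp8 rose by 2.38, Gbp6 by 1.80 and Gbp7 by 1.18, and at day 3 the differences were below 0 (Gbp8 -1.34 and -1.63, Gbp6 -1.15 and -1.32, Gbp7 -0.93 and -0.94). Gbp8 was also higher at day 1, by 1.96 and 1.93. The fourth, Ifi47, read between 11.46 and 11.83 on all arrays and did not pass.

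In class I antigen processing 7 of 11 genes rose in controls and 2 fell, with the immunoproteasome subunit Psmb9 (0.98) at the smallest p, and at day 3 it was 6 lower and 2 higher (Jmjd2a) and 7 lower and 2 higher (Jmjd2c). Psmb9 differed then by -0.71 and -0.74. Of 38 other interferon-induced genes 12 rose and 7 fell in controls, and at day 1 8 were higher and 0 lower (Jmjd2a) and 8 higher and 2 lower (Jmjd2c). The 3 of smallest p in controls, Phf11d (1.06), Ifi27 (0.90) and Trim34a (0.71), all rose. Of all probe sets 8.46% rose and 15.4% fell in controls. At day 1 4.23% were higher and 3.25% lower (Jmjd2a), and 5.32% and 5.69% (Jmjd2c). At day 3 7.11% were lower and 13.7% higher (Jmjd2a), and 5.04% and 9.28% (Jmjd2c). Among the 38, the falls in controls and the lower genes of the Jmjd2c label lay near these shares. All of these lists were chosen with earlier results of these data known.

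Markers of other spleen cells also differed between the groups. The mean log2 level of 7 NK cell markers was 4.76 and 4.97 on the day 1 controls, 6.07 to 6.65 on the labelled arrays of day 1, 6.74 and 6.72 on the day 3 controls and 5.46 to 5.67 on the labelled arrays of day 3. Of the 7, 5 rose in controls between days and 5 were lower at day 3 in each label, where 5 (Jmjd2a) and 6 (Jmjd2c) had been higher at day 1. Of all probe sets 8.46% rose in controls. In the Jmjd2a and Jmjd2c labels 7.11% and 5.04% were lower at day 3, and 4.23% and 5.32% were higher at day 1. Gzma, a granule protease of NK cells and T cells, rose in controls by 4.77. At day 3 these markers were lower on the labelled arrays, as Ifng and the GTPases were, and at day 1 they were higher there, when Gbp3 (0.47 and 0.41) and Gbp8 (1.96 and 1.93) were higher too and Gbp2, Igtp, Irgm1, Irgm2 and Iigp1 did not pass. Their part in the results was not tested.

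Macrophage and monocyte markers averaged 5.52 and 5.49 on the day 1 controls, 8.22 to 9.44 on the labelled arrays of day 1, 7.60 and 7.49 on the day 3 controls and 6.29 to 6.46 on the labelled arrays of day 3. All 13 measured were higher at day 1 in each label, and 12 rose in controls between days. Of mature B cell markers, 7 (Jmjd2a) and 8 (Jmjd2c) of 9 were higher at day 1. Of 9 T cell markers 5 rose in controls. The mean of the 9 was 5.57 and 5.62 on the day 1 controls and 6.16 and 6.04 on the day 3 controls. It was 6.03 to 6.24 on the labelled arrays of day 1 and 5.70 to 5.87 on those of day 3. Of 9 markers of dendritic cells, a list that joins conventional and plasmacytoid ones, 4 rose and 2 fell in controls. Of all probe sets 8.46% rose and 15.4% fell in controls, and at day 1 4.23% (Jmjd2a) and 5.32% (Jmjd2c) were higher. Of 9 neutrophil markers 0 passed in controls, by limma. Their mean was 4.45 and 4.54 on the day 1 controls and 5.40 and 5.39 on the day 3 controls. On the labelled arrays of day 1 it was 5.06 and 6.72 (Jmjd2a) and 5.13 and 7.26 (Jmjd2c), and on those of day 3 4.74 to 4.90. Such gaps between replicates enter the spread that all groups share in the fit. The absence of calls therefore does not show that these markers stayed level. In RNA of a whole culture, fewer cells of a type and less RNA per cell cannot be told apart, and the part of these cells in the results was not tested.

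**Figure D5:**
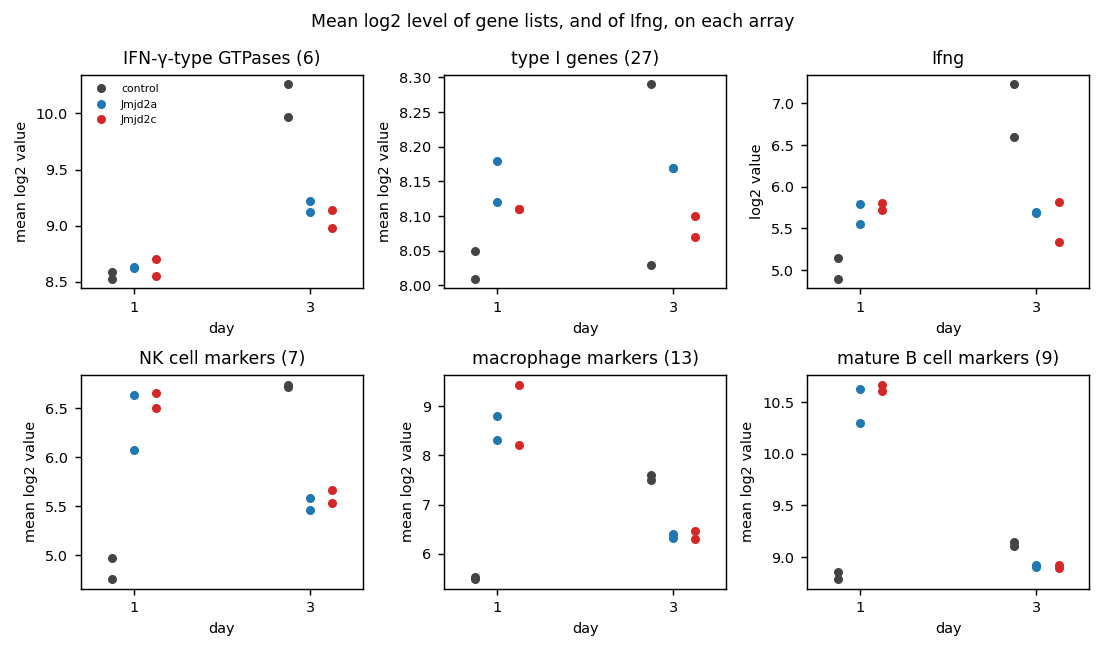
Mean log2 level of gene lists, and the level of Ifng, on each array (points), by day and label; the number of genes is in each title and vertical axes differ. The GTPases and Ifng are highest on the day 3 controls, the macrophage and mature B cell markers on the labelled arrays of day 1, and the type I genes lie between 8.01 and 8.29 on all arrays.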

How the data were processed

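RNA of 12 samples was hybridised to 1-colour Affymetrix arrays, in 6 groups of 2. The deposited table holds 1 log2 value per probe set and array, made by the authors; the summarisation and normalization behind it are not given in the sources used here, and its values were used as deposited. Of 45101 probe sets, 64 controls were left out. The platform annotation names 1 gene for 34945 of the other 45037, several for 932 and none for 9160. Group means were fitted to all 45037 with limma 3.58.1 in R 4.3.3 (lmFit, then eBayes with an intensity trend, 6 residual and a median of 5.85 prior degrees of freedom), and p-values were adjusted by Benjamini-Hochberg over all of them, with calls at 0.05. The steps were tested on simulated data. All 37 measured members are reported, with other probe sets where their call differs. From each list of other genes up to 3 of smallest p were to be named. Promoter windows came from RefSeq (GRCm38.p6), with Python 3.11.15 and pandas 2.3.3. Replicate numbers were not used as pairs. Alternatives covered normalization, filters, variance models, probe sets and single arrays. The number of arrays limits the precision. Members and lists were chosen with earlier results of these data known.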

Additional observations from a re-analysis of the deposited data

Results flagged for a closer look

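The difference between label and control changed from day 1 to day 3, by limma's interaction test, for 7 members upward and 13 downward in the Jmjd2a label (12% and 6.36% of all probe sets) and for 7 upward and 15 downward in the Jmjd2c label (10.7% and 6.84%). Each value is the day 3 difference minus the day 1 difference, on the log2 scale, and both labels share the same controls. Among the GTPases the values for the Jmjd2a and Jmjd2c labels were -1.86 and -1.91 (Gbp3), -1.54 and -1.57 (Gbp2), -1.31 and -1.53 (Iigp1) and -0.68 and -0.71 (Igtp). Irgm1 (-0.36) and Irgm2 (-0.66) passed for the Jmjd2c label alone, and whether the labels differ in this was not tested. Among the shared genes they were -2.11 and -2.07 (Cxcl10), -1.29 and -1.50 (Irf1), -0.82 and -0.88 (Tap1) and 0.98 and 0.68 (Socs1).

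On the type I side the values below 0 were -2.20 and -2.18 (Ifit3), -1.72 and -1.51 (Rsad2), -0.98 and -0.93 (Ifitm1), -0.82 and -1.11 (Ifit2), -0.76 and -0.70 (Parp14) and -0.69 and -0.83 (Ifih1). Those above 0 were 1.33 and 1.25 (Usp18), 1.31 and 1.33 (Ifitm2), 0.76 and 0.73 (Ifitm3), 0.72 and 0.73 (Oasl1), 0.68 and 0.51 (Oas1a) and 0.63 and 0.59 (Oas2). Some calls ended when 1 array was left out. In the Jmjd2a label the values were then 0.57 to 0.59 (Oas2), 0.69 (Oasl1), -1.20 (Iigp1) and -0.65 to -0.60 (Ifih1). In the Jmjd2c label they were 0.50 to 0.56 (Oas2), 0.64 (Oasl1), 0.47 to 0.76 (Socs1), -0.38 to -0.33 (Irgm1), -0.66 to -0.58 (Irgm2) and -0.64 (Parp14). Irgm2 passed without day 3 control replicate 1, at -0.42. Other probe sets gave another call for Rsad2 (-0.99, Jmjd2c, not past the test) and Dhx58 (0.86, Jmjd2a, past it), and those of Tap1 lay between -0.30 and 0.20 and did not pass.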

How the results depend on the processing

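Each count of called members was recomputed under the alternatives. Without the intensity trend the day 1 counts were 3 (Jmjd2a, 9 in the fit reported) and 5 (Jmjd2c, 8). Fitted on the groups compared alone, counts were 13 (Jmjd2c at day 1), 14 and 14 (Jmjd2a and Jmjd2c at day 3, against 23 and 22), 16 (controls between days, against 26), 11 (Jmjd2c between days, against 7) and 1 (between labels at day 3, against 0); these fits have fewer arrays. Array weights gave 13 for the Jmjd2c label between days. Leaving out 1 array gave 2 to 13 (Jmjd2a, day 1), 3 to 12 (Jmjd2c, day 1), 15 to 25 (Jmjd2a, day 3), 4 to 12 (Jmjd2a between days) and 4 to 14 (Jmjd2c between days). A second probe set turned the sign for Tap1 (-0.10 in the Jmjd2c label at day 1, and 0.03 for its interaction), Rsad2 (-0.01 in controls) and Parp14 (0.07 in the Jmjd2c label at day 3, -0.17 in controls, and 0.0037 and 0.17 for the interactions). The cause of these changes was not tested.

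Same-numbered replicates correlated at -0.111 to 0.392 in their deviations, over 0.1 in 1 of 15 group pairs. That pair, at 0.392, was the Jmjd2a and Jmjd2c labels of day 1. The numbers were not taken to pair the arrays across the series, and what the replicates of these 2 groups share was not tested. Between these 2 labels at day 1, 0 members passed with the replicate block as without it. With the replicate block the counts were 9 and 10 at day 1, 24 and 24 at day 3 (Jmjd2a and Jmjd2c) and 26 in controls between days. Of 145 called values, quantile normalization ended 5 calls, centring on the medians 7, array weights 12 and the replicate block 1.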
